A study of Mus musculus with 57 samples.

Results

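Mouse ESCs that carried only the Sox1 reporter signal were followed over 6 days of retinoic acid (RA) differentiation. These Sox1+FOXA2- cells were sorted at D2, D4 and D6, with 3 replicates per day, and make up 9 of the 57 libraries of the series and 9 of its 39 libraries of directly sorted cells. They were chosen by their labels: sorted cells of the Sox1+FOXA2- gate on D2, D4 and D6, without the 18 libraries of replated progeny. The line is Sox1-EGFP/FoxA2mCherry, in which EGFP takes the place of 1 Sox1 allele and mCherry is fused to FOXA2, and it is 1 clone picked for the match between mCherry and FOXA2 staining. The cells were grown in SerumLIF and then moved to N2B27 medium with 1 uM RA, so that all 3 groups share the line and the treatment and differ in the time in RA. No Sox1+FOXA2- cells were taken at D0, where only Sox1-FOXA2- cells were sorted, in 3 libraries. Each library holds about 500 cells of a bulk sort, so that fewer cells of a type and less RNA per cell cannot be told apart. The study calls the libraries of a condition biological replicates, while the labels do not say what separates them (cultures, sorts or preparations), so that p-values measure the spread between these libraries.

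Sox1 is among the earliest markers of neuroectoderm, and FOXA2 is a forkhead factor of endoderm and of the floor plate. Cells take up retinol through STRA6 and turn it into RA, which is held by CRABP proteins and binds RAR/RXR receptors that sit on direct repeats in the promoters of target genes. The targets include genes that limit the signal, such as the RA hydroxylase Cyp26a1 and the retinaldehyde reductase Dhrs3, together with Hox genes, and the germ cell gene Stra8. Neural progenitors that form in RA express Nes, Vim and Pax6 before neurons appear.

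Library totals ran from 22857168 to 55046208 counts on genes, and 15904 to 27832 genes had at least 1 count. Replicate 3 at D2 had the fewest genes and the lowest score on the first principal component (-20.8). Replicate 3 at D4 had a component score of 20.3, beyond the range of the D6 libraries (11.2 to 17.7), whereas the other D4 libraries scored -8.2 and -10.1, beside the other D2 libraries (-12.2 and -10.1). The D2 and D6 scores did not overlap, with an exact permutation p of 0.1, the smallest that 3 against 3 libraries allow. The share of protein-coding counts on genes spanning over 200 kb was 7.5%, 8.1% and 6.0% at D2, 9.8%, 5.9% and 15.03% at D4, and 13.04%, 10.6% and 14.2% at D6. Counts on the 1466 olfactory and vomeronasal receptor genes, which are nasal genes, moved in the same libraries: they were 257 to 323 CPM (counts scaled to the library's total) at D2, 275, 478 and 1952 at D4, and 1247 to 1911 at D6 (5.13-fold higher on average at D6 than at D2, exact permutation p = 0.1).

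**Figure D1:**
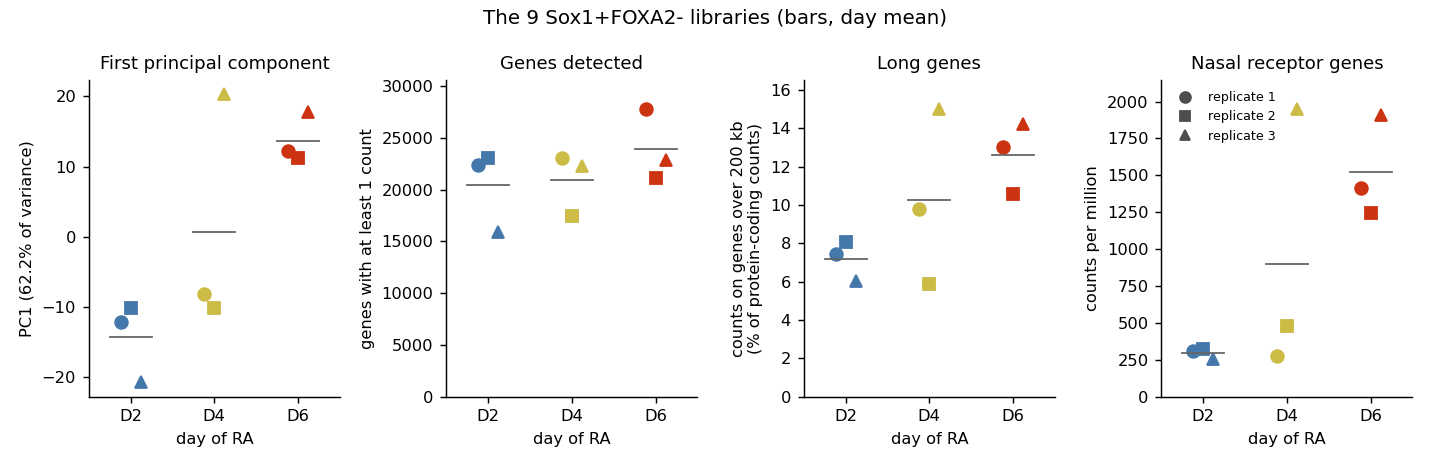
The 4 panels plot, for each of the 9 libraries by day of RA, the first principal component of the 500 most variable genes, the number of genes with at least 1 count, the share of protein-coding counts on genes over 200 kb, and CPM on nasal receptor genes, with bars at the day means. Replicate 3 at D4 (20.3) lies beyond the D6 libraries on the first component and has the most counts on nasal receptor genes (1952 CPM).

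The gate label could be checked only in part. Reads were counted over whole gene spans, and 13132 of 13136 genes lying inside another gene received no counts. Sox1, Sox2 and Tubb3 were at 0 in all libraries and cannot be read. Nes had 2985, 1776 and 543 normalized counts (counts divided by the library's size factor) at D2, 11420, 12171 and 3068 at D4, and 5047, 4371 and 1281 at D6. Pax6 was present in all 9 libraries (737 to 5266). Foxa2 was low throughout, at 327, 343 and 0 at D2, 3.28, 58.7 and 265 at D4, and 137, 130 and 21.2 at D6, whereas the Sox1-FOXA2+ libraries of these days held 1586 to 3423. The genes that could be read thus did not go against the label of the gate. Only Foxa2 was set beside another gate here, and Nes and Pax6 were not compared with the Sox1- populations. The paper reports that Sox1-EGFP correlated well with SOX1 protein at D4 but not at D6. The Sox1 label is therefore less certain at D6.

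Markers of other cells were measured beside them. The 6 pluripotency markers summed to 77 to 156 CPM in replicates 1 and 2 at D2 and to 646 in replicate 3. They summed to 104 to 154 at D4 and to 238, 113 and 440 at D6, and none of the 6 had groups without overlap between D2 and D6. Nanog, for example, was at 154, 593 and 4484 at D2 and at 1038, 563 and 3601 at D6. The 7 endoderm markers summed to 65 to 127 CPM at D2 and 64 to 122 at D6. The 4 mesoderm markers reached at most 25 CPM in any library. The part of pluripotent cells in the results below was not tested.

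No gene passed the main test of D6 against D2. With edgeR's quasi-likelihood test over the 9 libraries, 0 of 22328 genes (0%) had an adjusted p under 0.05, while 2528 had an unadjusted p under 0.05. The same count was 0 (0%) for D4 against D2, with 1402 at an unadjusted p under 0.05, and 0 (0%) for D6 against D4, with 894. DESeq2 called 1296, 388 and 128 genes in these comparisons, but on simulated counts with 200 changed genes 63.5% of its calls for D6 against D2 were false with equal noise in all libraries and 33.0% with noise set by library weight, against 3.70% and 0% for edgeR. The test of limma with library weights, added after seeing the data, called 1208 genes for D6 against D2, 936 of them higher and 272 lower, and 5.45% and 6.06% of its calls were false on the same simulated counts. The simulated counts were drawn with edgeR's own estimates of spread, which may favour edgeR over DESeq2. They also held no shift shared by many genes of a library, such as that of the long genes. These rates may therefore not hold for the real calls of any of these tests. Leaving out replicate 3 at D4 gave 129 genes for D6 against D2 and 15 for D6 against D4, and leaving out replicate 2 at D4 gave 15 for D6 against D2. A fit of the 6 D2 and D6 libraries alone called 116 of 20506 genes (0.566%), of which 91 were higher at D6 (0.444%) and 25 lower (0.122%). Each of the 6 libraries moved that count by over 1.5 times when it was left out: it was 20, 55 and 309 without replicate 1, 2 and 3 at D2, and 15, 17 and 8 without replicate 1, 2 and 3 at D6. Another scaling (RLE) gave 134 genes, 121 of them higher, and moved the median of all genes by 0.10 on the log2 scale. In a fit of 27 libraries that also held the Sox1-FOXA2- and Sox1-FOXA2+ cells, 5 of 26402 genes (0.0189%) were called between D2 and D6 in Sox1+FOXA2- cells, all of them lower: Stra8, Scd1, Xbp1, Llgl2 and Snrnp27. In the following, a gene is said to have fallen or risen only where it passed the 6-library fit, which was planned as an alternative. Its log2 changes are given with the adjusted p of that fit, and the D2 and D6 libraries of these genes did not overlap.

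The largest falls between D2 and D6 were in RA response genes. Stra8, a gatekeeper of meiosis that RA induces, had 23949, 18910 and 48466 normalized counts at D2, 2292, 6606 and 16043 at D4, and 3716, 2399 and 4782 at D6. It fell by 3.33 ± 0.40 (SE) on the log2 scale (edgeR adjusted p = 0.0095), and was also called when only genes under 30 kb were tested. At D0 the Sox1-FOXA2- cells had 1370, 98 and 1160, so that the D6 libraries lay between D0 and D2. Dhrs3, which turns retinaldehyde back into retinol, had 5367, 3308 and 3453 at D2, 1449, 500 and 1923 at D4, and 363, 1192 and 351 at D6. It fell by 2.90 ± 0.51 (adjusted p = 0.038), with all D4 libraries below all D2 libraries. Rec8, a meiotic cohesin subunit, also fell, by 1.89 ± 0.35 (adjusted p = 0.046), from 6054, 3089 and 2728 at D2 to 1149, 1095 and 1569 at D6.

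Of the 20 RA response genes tested, 6 lay lower at D6 without overlap (among them Stra8, Dhrs3, Stra6, Cyp26a1 and Cyp26c1) and 2 lay higher (Crabp1 and Rbp4), where 5.6% of all genes tested lay lower without overlap and 19.7% higher. Only Stra8 and Dhrs3 of the 20 passed the 6-library test. The median change of the list was -0.22, against 0.24 over all genes tested. Cyp26a1, which breaks down RA, had 3139, 1102 and 3125 normalized counts at D2, 229, 28.4 and 550 at D4, and 98.4, 425 and 0 at D6, and did not pass (log2 change -3.95 ± 1.32, adjusted p = 0.38 over the 9 libraries). Stra6, the retinol transporter, went from 6532, 3788 and 1454 to 660, 1127 and 427 (6-library adjusted p = 0.065). Crabp1, which binds RA in the cytoplasm, had 2717, 2788 and 314 at D2 and 12290, 20594 and 2872 at D6 (log2 change 2.43 ± 0.81, adjusted p = 0.37). Without replicate 3 at D2 the list had 8 genes lower and 5 higher, where 10.5% and 23.6% of all genes were.

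The days overlapped for the RA receptor gene Rarb. It had 3514, 2846 and 976 at D2 and 2591, 2964 and 3583 at D6, a log2 change of 0.10 ± 0.47. The 250 bases before the RefSeq starts of both genes and of Stra8 (GRCm38.p6) are shown because all 3 are classical RA genes, of which Stra8 fell, Cyp26a1 lay lower at D6 without passing and Rarb overlapped between days. Capitals mark each receptor hexamer searched, on either strand: AGGTCA, its variant AGTTCA, and the forms GGTTCA and GGGTCA.
Cyp26a1, chr19:37697558-37697807, plus strand: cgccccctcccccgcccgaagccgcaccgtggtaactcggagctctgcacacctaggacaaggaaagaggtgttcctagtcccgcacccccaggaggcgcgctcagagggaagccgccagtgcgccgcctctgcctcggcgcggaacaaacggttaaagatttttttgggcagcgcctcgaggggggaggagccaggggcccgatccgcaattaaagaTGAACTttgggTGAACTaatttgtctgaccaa
Rarb, chr14:16575477-16575726, minus strand: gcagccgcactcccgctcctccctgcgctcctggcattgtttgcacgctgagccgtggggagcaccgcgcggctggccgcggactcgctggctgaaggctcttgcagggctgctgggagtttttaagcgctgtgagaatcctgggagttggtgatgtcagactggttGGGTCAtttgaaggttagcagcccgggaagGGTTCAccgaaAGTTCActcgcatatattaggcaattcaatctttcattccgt
Stra8, chr6:34920698-34920947, plus strand: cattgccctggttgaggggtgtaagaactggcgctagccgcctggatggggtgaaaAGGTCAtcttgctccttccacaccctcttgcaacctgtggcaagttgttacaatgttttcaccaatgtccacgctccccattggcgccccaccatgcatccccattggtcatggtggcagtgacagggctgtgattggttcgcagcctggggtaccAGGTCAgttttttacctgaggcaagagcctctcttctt
The Cyp26a1 and Rarb windows each hold a direct repeat of 2 hexamers 5 bases apart, on the minus strand of the Cyp26a1 window as printed and on the plus strand of the Rarb window. Such a repeat was found in 29 of 32851 RefSeq promoter windows of that length (0.0883%). The Stra8 window holds 2 single hexamers and no such repeat, and 38.6% of all windows hold at least 1 of these hexamers. The Stra8 and Rarb windows lie inside the spans of these genes in GENCODE. Neither gene with the repeat passed the test between D2 and D6, no test compared them with each other, and a match of letters does not show that a receptor binds there.

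**Figure D2:**
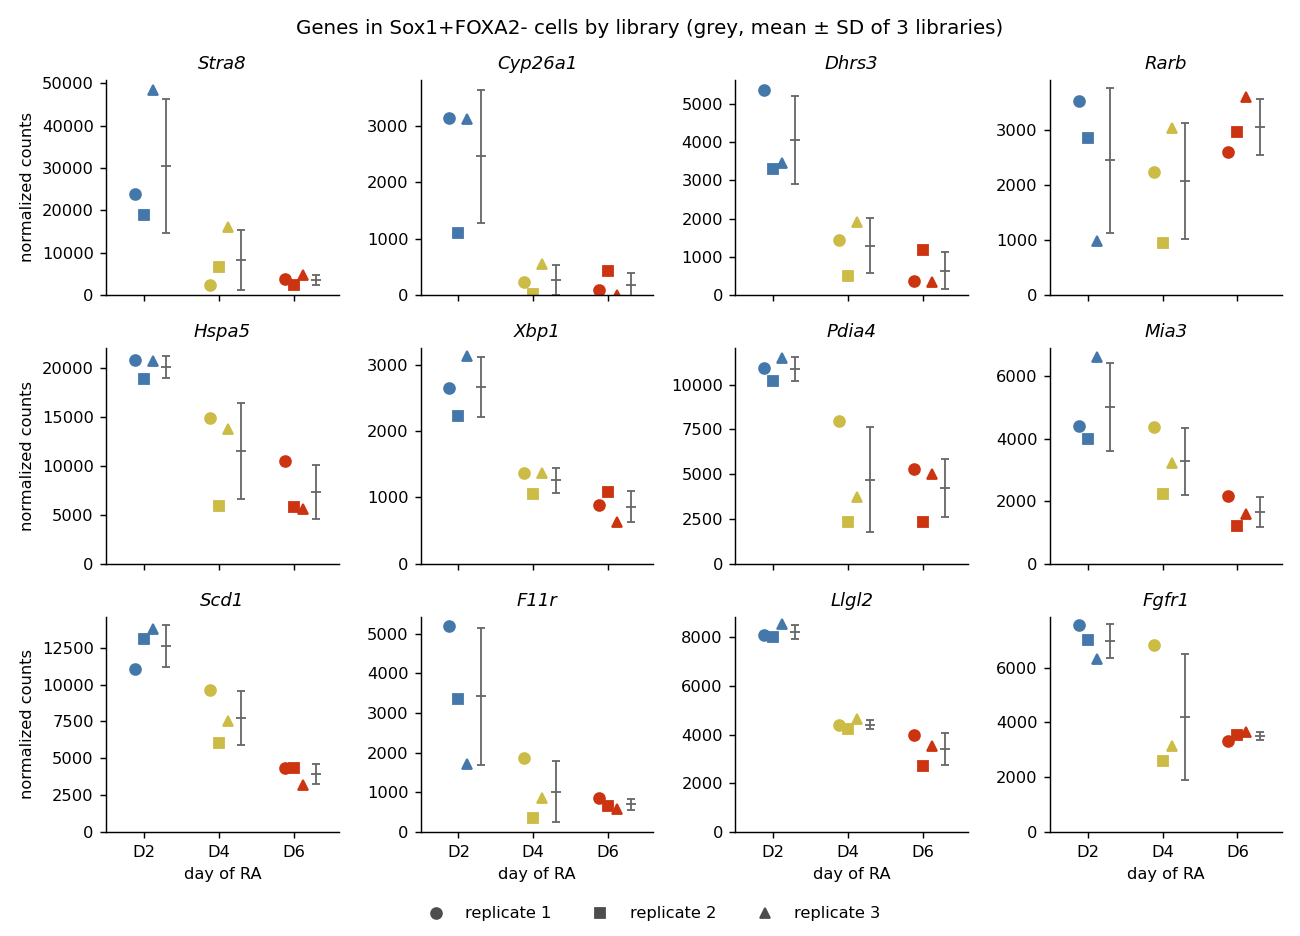
Normalized counts of 12 genes are plotted for each library by day of RA on linear axes that start at 0, with the mean ± SD of 3 libraries in grey. In 11 of the 12 panels every D6 library lies below every D2 library, and Rarb (976 to 3583) is the exception.

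Hox genes, which RA induces from the 3′ ends of their clusters, had no member that passed the test, and those without overlap lay lower at D6. Only 17 of 39 could be tested, and 14 were at 0 in all 9 libraries. Since genes that overlap others are undercounted, a count of 0 does not show that a Hox gene was silent. Of the 17, 3 were lower at D6 without overlap and 0 higher, where 5.6% and 19.7% of all genes were, and the list's median was -0.83. Hoxb8 went from 2588, 1698 and 1370 normalized counts at D2 to 496, 391 and 129 at D6, and Hoxb4 from 1339, 1023 and 1514 to 571, 521 and 235. Halr1, a non-coding RNA beside the HoxA cluster, fell by 2.11 ± 0.32 (adjusted p = 0.025), from 4052, 4846 and 5001 at D2 to 2042, 877 and 1754 at D4 and 1275, 771 and 1819 at D6. Without replicate 3 at D2, 6 of the 17 Hox genes were lower without overlap, where 10.5% of all genes were.

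Genes of folding and export in the endoplasmic reticulum (ER) were lower together. This list of 30 genes was written after the called genes had been seen, so that its counts and sums are a description. Of the 30, 21 lay lower at D6 without overlap and 0 higher, where 5.6% of all genes tested lay lower and 19.7% higher. Without replicate 3 at D2, 24 lay lower, where 10.5% of all genes did. The median change was -1.22, against 0.24 over all genes tested. In the 6-library test 6 passed, all lower, where 0.122% of all genes passed as lower. Summed over the list, counts were 5872 ± 157 CPM (SD, n = 3) at D2 and 3135 ± 746 at D6. Hspa5 (BiP), the main ER chaperone, had 20812, 18882 and 20704 normalized counts at D2, 14921, 5938 and 13813 at D4, and 10510, 5842 and 5597 at D6, and fell by 1.70 ± 0.29 (adjusted p = 0.036). Xbp1, a transcription factor of the unfolded protein response, had 2650, 2226 and 3122 at D2, 1361, 1043 and 1363 at D4 and 883, 1076 and 621 at D6, and fell by 1.87 ± 0.35 (adjusted p = 0.046). The D4 libraries of Xbp1 were already all below D2.

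The other ER genes that fell act in disulfide exchange (Pdia4 and Pdia6), N-glycosylation (Rpn1) and the export of large cargo such as collagen (Mia3). Pdia4 fell by 1.63 ± 0.30 (adjusted p = 0.046), from 10946, 10200 and 11511 to 5297, 2349 and 4977. Mia3 fell by 1.85 ± 0.32 (adjusted p = 0.036), from 4398, 3999 and 6626 to 2160, 1200 and 1583. Rpn1 fell by 1.46 ± 0.26 (adjusted p = 0.042). Calr, a lectin chaperone, was lower without overlap (14900, 12519 and 22316 against 9147, 4158 and 8089) and did not pass (6-library adjusted p = 0.086).

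Genes of sterol and fatty acid synthesis were lower as well. In this list, also written after the calls had been seen, 13 of 27 genes lay lower without overlap and 1 higher. The shares of all genes tested were 5.6% lower and 19.7% higher. The list's median was -0.79, against 0.24 over all genes. Without replicate 3 at D2, 17 lay lower and 1 higher, where 10.5% and 23.6% of all genes did. Scd1, which desaturates fatty acids, had 11056, 13072 and 13804 normalized counts at D2, 9659, 6029 and 7506 at D4, and 4313, 4368 and 3173 at D6, so that the D4 libraries lay between the other days. It fell by 1.92 ± 0.25 (adjusted p = 0.015). Aldh3a2, a fatty aldehyde dehydrogenase outside that list, fell by 1.61 ± 0.29 (adjusted p = 0.041).

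Among genes of epithelial polarity, F11r and Llgl2 fell. Llgl2, a basolateral polarity protein, had 8090, 8014 and 8562 normalized counts at D2, 4380, 4241 and 4628 at D4 and 3988, 2709 and 3557 at D6. The 3 D4 libraries lay closely together between the other days, and the gene fell by 1.52 ± 0.24 (adjusted p = 0.026). F11r (JAM-A), a tight junction protein, fell by 2.54 ± 0.42 (adjusted p = 0.032), from 5185, 3366 and 1725 to 859, 658 and 574. Cdh1, the cadherin of epithelia and ESCs, overlapped between D2 (2369, 2531 and 4027) and D6 (2172, 1023 and 2768). The list of polarity genes was also written after the called genes had been seen, so that its counts are a description. Of its 19 members tested, 4 lay lower without overlap, F11r and Llgl2 among them, and 1 higher. The shares of all genes tested were 5.6% lower and 19.7% higher.

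The other genes that fell included enzymes, transporters and receptors. Slc2a1, the basal glucose transporter, fell by 1.76 ± 0.31 (adjusted p = 0.038), from 18092, 19913 and 10271 to 7082, 4120 and 5743, with 61.3% of its exon bases in another gene. Shmt2, the mitochondrial serine hydroxymethyltransferase, fell by 1.502 ± 0.27 (adjusted p = 0.041), from 3652, 2991 and 3807 to 1584, 1277 and 1532. Alpl, the tissue-nonspecific alkaline phosphatase used as a marker of ESCs, fell by 1.71 ± 0.32 (adjusted p = 0.046), from 2940, 2450 and 3488 to 1322, 1030 and 868. Fgfr1, an FGF receptor of neural progenitors and epiblast, fell by 1.24 ± 0.23 (adjusted p = 0.043), with 7545, 7024 and 6329 at D2 and 3340, 3533 and 3639 at D6, and its D4 libraries spread from 2578 to 6823. Clgn, an ER chaperone of the testis, fell by 2.24 ± 0.33 (adjusted p = 0.021), and Gprc5c, an orphan receptor that RA induces, by 2.16 ± 0.39 (adjusted p = 0.041). The histone gene Hist1h2af fell by 1.94 ± 0.32 (adjusted p = 0.033) and has histone paralogs of nearly the same sequence, so that its counts are uncertain. Of the remaining genes of the 25, 4 fell by 1.67 (Tma7), 1.47 (Clstn1, a synaptic calsyntenin), 1.38 (Sash1) and 1.22 (Pdia6).

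**Figure D3:**
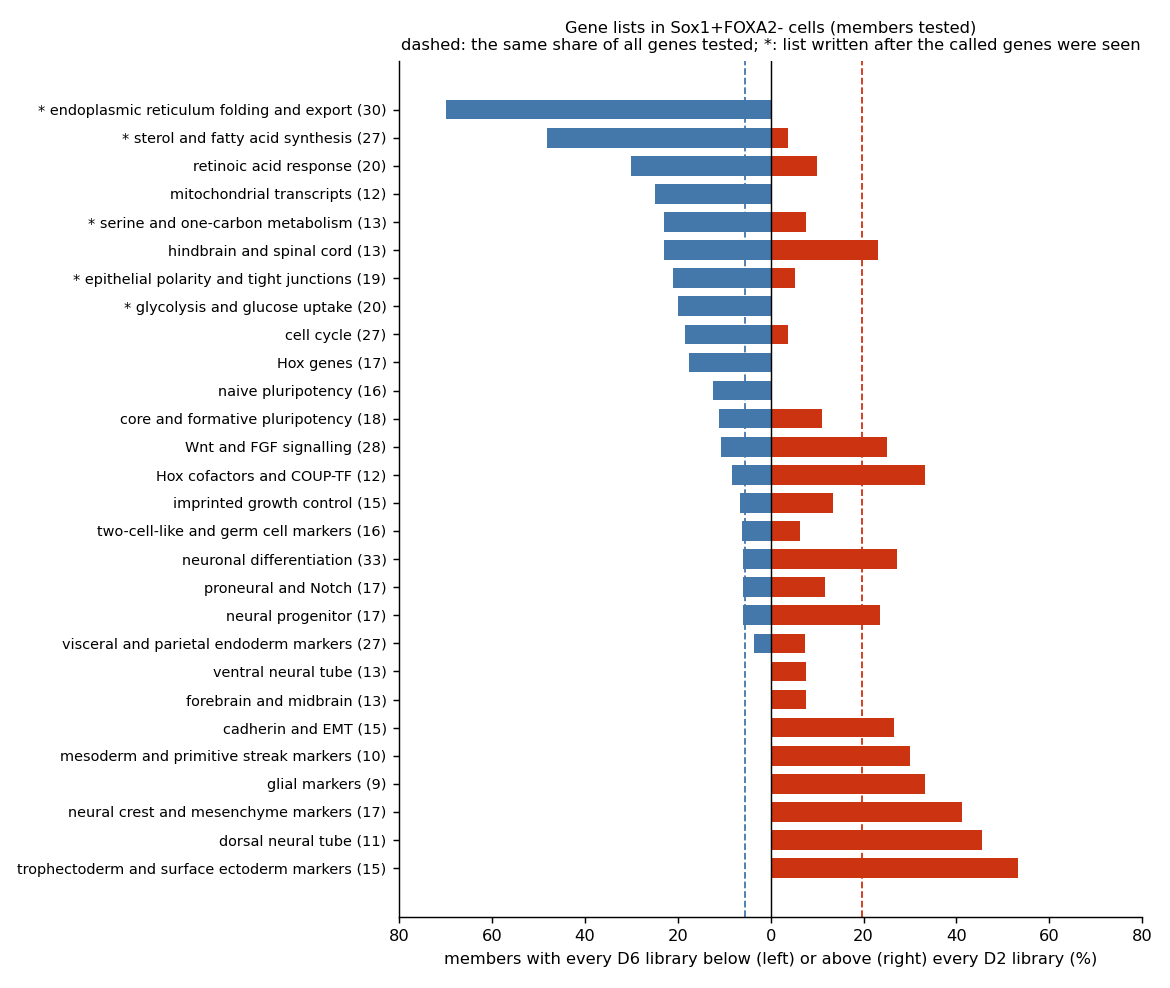
Bars give, for each gene list, the percentage of its tested members (number in parentheses) with every D6 library below (left, blue) or above (right, red) every D2 library. Dashed lines mark the same shares of all genes tested (5.6% lower and 19.7% higher), and asterisks mark lists written after the called genes were seen. The ER list stands farthest to the left (21 of 30) and the trophectoderm and surface ectoderm list farthest to the right (8 of 15).

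No neural progenitor gene passed the test between D2 and D6, and Rbfox3 was the single member of the neuronal list that did. Of the 17 neural progenitor genes tested, 4 lay higher at D6 without overlap (Fabp7, Zic1, Vim and Zfp521) and 1 lower (Pou3f1), where 19.7% and 5.6% of all genes did, with a median of 0.81 against 0.24 over all genes, and 0 passed either fit by edgeR. Vim, an intermediate filament of progenitors, had 4841, 4365 and 3235 normalized counts at D2, 19870, 31636 and 7125 at D4, and 9685, 9996 and 5219 at D6. Fabp7, a radial glia gene, was at 37.0, 0 and 0 at D2 and 1212, 597 and 67.5 at D6. Of 33 neuronal genes, 9 lay higher and 2 lower, and Rbfox3, which encodes the neuronal antigen NeuN, rose by 2.17 ± 0.38 (adjusted p = 0.037), from 607, 536 and 1006 to 3415, 5081 and 2908. Rbfox3 spans 422 kb and had 497, 759 and 3183 at D4, so that it belongs to the long genes described below, with replicate 3 at D4 beside D6. Elavl4, an RNA-binding protein of early neurons, was at 400, 357 and 0 at D2, 450, 292 and 481 at D4 and 1532, 1649 and 1574 at D6 and did not pass (log2 change 2.42 ± 1.15, adjusted p = 0.45).

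Dorsal neural tube, neural crest and surface ectoderm genes had no member that passed, and several were higher at D6. Of 11 dorsal neural tube genes, 5 lay higher without overlap and 0 lower, with a median of 1.98, where 19.7% of all genes lay higher and the median was 0.24. Pax3, a factor of the dorsal neural tube and neural crest, had 14.4, 132 and 0 normalized counts at D2, 1511, 1196 and 64.3 at D4, and 725, 872 and 446 at D6 (log2 change 3.56 ± 1.41, adjusted p = 0.41). Of 17 neural crest and mesenchyme genes, 7 lay higher and 0 lower, with a median of 1.13. Of 15 trophectoderm and surface ectoderm genes, 8 lay higher and 0 lower, with a median of 1.46. Krt18, a keratin of simple epithelia, had 813, 1194 and 241 at D2, 3842, 3913 and 4250 at D4, and 6459, 1568 and 5620 at D6 (log2 change 2.36 ± 0.56, adjusted p = 0.23), with all later libraries above D2. Gata3 (41.1, 121 and 39.2 against 244, 235 and 477) and Krt7 (296, 223 and 42.9 against 843, 515 and 440) had lower levels than Krt18 and also did not overlap. Without replicate 3 at D2 these 3 lists had 5, 8 and 8 genes higher and 0 lower. The shares of all genes were then 23.6% higher and 10.5% lower. Summed counts of the 3 lists were low, with means of 71, 93 and 140 CPM at D2 and 158, 223 and 376 at D6. Counts on nasal receptor genes were also higher in the same D6 libraries, with means of 297 CPM at D2 and 1524 at D6. Whether the 2 are linked was not tested.

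In the remaining lists Fgfr1, Stra8, Slc2a1 and Shmt2 were the members that passed. Their counts of genes without overlap stand beside shares of 19.7% higher and 5.6% lower over all genes tested. Nr2f2 (COUP-TFII), a nuclear receptor that RA induces, lay higher in all later libraries, with 726, 735 and 485 normalized counts at D2, 1254, 1705 and 1257 at D4, and 1599, 2516 and 1666 at D6 (log2 change 1.38 ± 0.43, adjusted p = 0.35), and 4 of 12 Hox cofactors and COUP-TF genes lay higher and 1 lower. Of 27 cell cycle genes, 5 lay lower (Ccnb1, Ccnb2, Ccne1, Cdkn1b and Plk1) and 1 higher (Mycn). Naive pluripotency genes had 0 of 16 higher and 2 lower, and core and formative ones 2 of 18 higher and 2 lower. Forebrain and midbrain genes had 1 of 13 higher and 0 lower, hindbrain and spinal cord genes 3 of 13 higher and 3 lower, and ventral neural tube genes 1 of 13 higher and 0 lower. Counts higher and lower were 2 and 1 of 17 for proneural and Notch genes, 4 and 0 of 15 for cadherins and EMT, 7 and 3 of 28 for Wnt and FGF signalling, and 2 and 1 of 15 for imprinted genes. They were 2 and 1 of 27 for visceral and parietal endoderm, 3 and 0 of 10 for mesoderm, 3 and 0 of 9 for glia, 1 and 1 of 16 for two-cell-like and germ cell genes, and 0 and 3 of 12 for mitochondrial transcripts. Among the lists added later, 0 and 4 of 20 glycolysis genes and 1 and 3 of 13 serine and one-carbon genes lay higher and lower.

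The genes that rose were of another kind: 85 of the 91 span over 200 kb, a class that holds 1084 of the 20506 genes tested, and their median span was 729 kb. The 25 genes that fell had a median span of 21.5 kb, and 0 of them spanned over 200 kb. Sox5, an SRY-box factor of neural progenitors and early neurons (954 kb), had 558, 508 and 467 normalized counts at D2, 1367, 2343 and 7470 at D4, and 5318, 3929 and 5031 at D6, and rose by 2.97 ± 0.29 (adjusted p = 0.0042). Creb5 had 222, 281 and 620 at D2, 2507, 541 and 1638 at D4 and 3586, 2604 and 3471 at D6, and rose by 2.85 ± 0.44 (adjusted p = 0.025). The netrin receptor gene Dcc rose by 2.69 ± 0.42 (adjusted p = 0.025), from 841, 1188 and 784 to 11729, 3473 and 6487. Nrg1, a ligand of ERBB receptors, rose by 1.89 ± 0.26 (adjusted p = 0.017), from 1679, 1217 and 1390 to 6353, 5358 and 7174.

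Leaving out predicted genes and clone names, among them BB123696, which was at 0 in all D2 libraries, the 15 largest rises with a mean of at least 100 normalized counts lay between 2.85 (Creb5) and 4.36 (Tshz2). Besides Sox5 they included genes of synapses and neuronal membranes, such as Dpp6, a potassium channel subunit (909, 1156 and 429 against 3882, 5435 and 13326), Lrrtm4, a synaptic adhesion protein (90.5, 526 and 256 against 2708, 2649 and 3346), Kcnip4, Gpr158, Syt16, Cntnap5a, Pcdh7 and Rit2. They also held Dnah6 and Dnah7a, dynein heavy chains of motile cilia, and Ano2, Fam19a1 and Tshz2. In Tshz2, 70.9% of exon bases lie in another gene. Of the 91 genes, 3 (Gm10800, Gm10801 and Gm21738) are short predicted genes with nearly the same sequence, for which single counts are uncertain, and whose counts together were 505 to 550 CPM at D2, 467, 799 and 5775 at D4, and 3434 to 3872 at D6.

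The change between D2 and D6 grew with gene span over all protein-coding genes. The median log2 change over the 9 libraries was -0.22 for 3872 genes of up to 10 kb, -0.07 for 10 to 30 kb, 0.05 for 30 to 100 kb, 0.36 for 100 to 200 kb, 0.89 for 200 to 500 kb and 1.64 for the 225 genes over 500 kb. RLE scaling moved the median of all genes by 0.10, more than the value of the 10 to 30 kb class. Of the genes over 500 kb, 83.6% lay higher at D6 without overlap, against 5.68% of the shortest class. Among all 13512 tested genes under 30 kb, 11.3% lay higher and 7.07% lower. Replicate 3 at D4, which had the highest share of counts on long genes (15.03%), lay within or beyond the D6 range for 79 of the 91 genes, against 1 for replicate 1 and 0 for replicate 2. With the share of counts on long genes as a covariate, edgeR called 0 genes over the 9 libraries, as it did without it, so that this fit says nothing about the 116 genes. Counting does not separate reads of unspliced RNA from reads of genomic DNA. The part of the long-gene share, of the counts on nasal receptor genes and of replicate 3 at D4 in these genes was not tested. When only genes under 30 kb were tested and scaled among themselves, which moved their median change from -0.10 to 0.18, 5 of 11686 genes passed in the 6 libraries, with Stra8 the single gene that was lower and Gm10800, Gm10801, Gm21738 and Gm33838 higher.

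**Figure D4:**
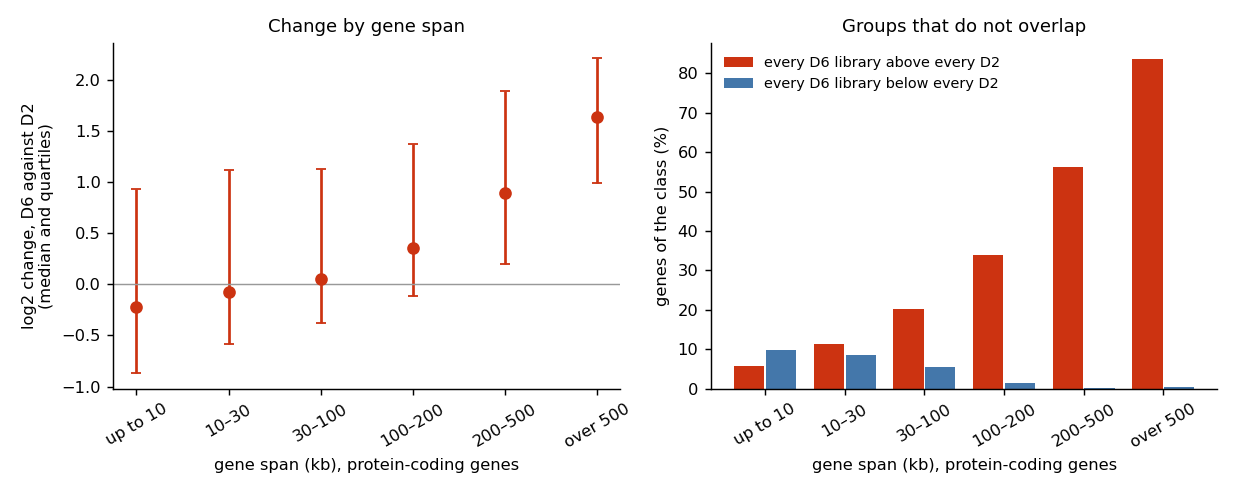
Protein-coding genes are grouped by span in kb. On the left, points and bars give the median and quartiles of the log2 change from D2 to D6 over the 9 libraries, and on the right, bars give the percentage of genes of each class with every D6 library above (red) or below (blue) every D2 library. The median goes from -0.22 in the shortest class to 1.64 in the longest.

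In the fit, the D4 mean of most called genes had moved from D2 in the direction of D6, but single D4 libraries differed. Of the 25 genes that fell, 25 had a lower D4 mean in the fit (median log2 change -1.06, against -1.72 at D6 over the 9 libraries), and 17 had all 3 D4 libraries below all D2 libraries. Replicate 2 at D4 lay within or beyond the D6 range for 16 of the 25, against 3 for replicate 1 and 7 for replicate 3. Of the 91 genes that rose, 90 were higher at D4 in the fit (median 1.59 against 2.42), but replicates 1 and 2 at D4 were both above D2 in 17 of them, among them Sox5, Dcc, Nrg1, Nlgn1, Ptprd and Cntn4, whereas replicate 3 at D4 was above D2 in all 91. Of all genes tested, 4.85% lay higher and 3.81% lower at D4 than at D2 without overlap, and 8.51% lay higher and 3.04% lower at D6 than at D4. Plagl1, an imprinted zinc finger gene, was highest at D4, with 578, 797 and 1044 at D2, 5502, 19580 and 2612 at D4 and 5044, 4594 and 940 at D6. Sox9, a progenitor factor, was at 61.7, 253 and 133 at D2, 1362, 2155 and 1034 at D4 and 716, 450 and 63.7 at D6. Neural progenitor genes had 5 of 17 higher and 0 lower at D4, with a median of 1.87. No gene of these lists passed between D2 and D4.

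The change between D2 and D6 was compared with that of Sox1-FOXA2- cells. The difference of the changes was not called for any of 26402 genes by edgeR (0%), with 1140 at an unadjusted p under 0.05 and 622 called by DESeq2. Of the 25 genes that fell in Sox1+FOXA2- cells, 25 were also lower at D6 in Sox1-FOXA2- cells, by a median of 0.73, against 1.74 in Sox1+FOXA2- cells in the same fit, and of the 91 that rose 87 were also higher there (median 1.61 against 2.39). Stra8 had 49221, 38492 and 35588 normalized counts in Sox1-FOXA2- cells at D2 and 5549, 4821 and 6347 at D6. The ER list had 17 of 30 genes lower and 0 higher in Sox1-FOXA2- cells, where 5.23% of all genes lay lower, and its median there was -0.59. In those cells the share of counts on long genes was 7.0% to 9.3% at D2 and 6.3% to 14.99% at D6.

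Sox1-FOXA2+ cells changed differently in part of the genes. Of the 91 genes that rose in Sox1+FOXA2- cells, 83 were also higher at D6 in Sox1-FOXA2+ cells. Of the 25 that fell, 18 were also lower there, among them Stra8 (log2 change -4.87) and Dhrs3 (-2.69). The difference of the changes was called for 0 of the 91 and 2 of the 25. For 79 of 26402 genes (0.299%) the change from D2 to D6 differed between Sox1+FOXA2- and Sox1-FOXA2+ cells, with 65 lower (0.246%) and 14 higher (0.053%) in Sox1+FOXA2- cells. By their own changes in that fit, 391 genes (1.48%) were called in the Sox1-FOXA2+ population and 34 (0.129%) in Sox1-FOXA2- cells. Of the 29 visceral and parietal endoderm genes, 9 were among the 65: Dab2, Lrp2, Lama1, Lamb1, Lamc1, Col4a1, Col4a2, Sparc and Srgn. Lama1, a laminin chain of basement membranes, had 5521, 3523 and 1634 normalized counts at D2 and 2396, 1855 and 2119 at D6 in Sox1+FOXA2- cells. The Sox1-FOXA2+ libraries held 3053, 16466 and 26323 at D2 and 647873, 309472 and 301320 at D6, a difference of changes of -5.65 on the log2 scale (edgeR adjusted p = 4.4e-05). Col4a1, a chain of collagen IV, differed by -5.72 (adjusted p = 0.0052), and the named genes Tinagl1, Ccn2 and Pdpn by -6.59, -5.52 and -5.40. Tinagl1 had 0 to 325 counts in the Sox1+FOXA2- libraries, so that its value rests on few reads.

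The ER list was also compared between these populations. Its genes were chosen after falls in the same Sox1+FOXA2- libraries had been seen, so that the counts are a description. Of the 30 genes, 30 had a lower change in Sox1+FOXA2- cells than in the FOXA2+ population, with a median difference of -1.89 against 0.18 over all genes, and 6 passed (Xbp1, Hspa5, Calr, Pdia3, P4hb and Ostc). In Sox1-FOXA2+ cells 10 of the 30 lay higher at D6 without overlap and 0 lower, where 7.35% of all genes lay higher and 5.78% lower, and the median was 0.59. Xbp1 had 2579, 2745 and 1842 normalized counts at D2 and 7350, 5520 and 4344 at D6 in Sox1-FOXA2+ cells, against 2650, 2226 and 3122, and 883, 1076 and 621, in Sox1+FOXA2- cells. The difference of the changes was -2.99 (adjusted p = 0.0016). P4hb, a disulfide isomerase and collagen hydroxylase subunit, went from 14778, 17890 and 21251 to 89295, 53122 and 54140 in Sox1-FOXA2+ cells and from 16650, 14633 and 15174 to 9883, 6929 and 6486 in Sox1+FOXA2- cells. For both genes the ranges of these populations overlapped at D2 and lay apart at D6.

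**Figure D5:**
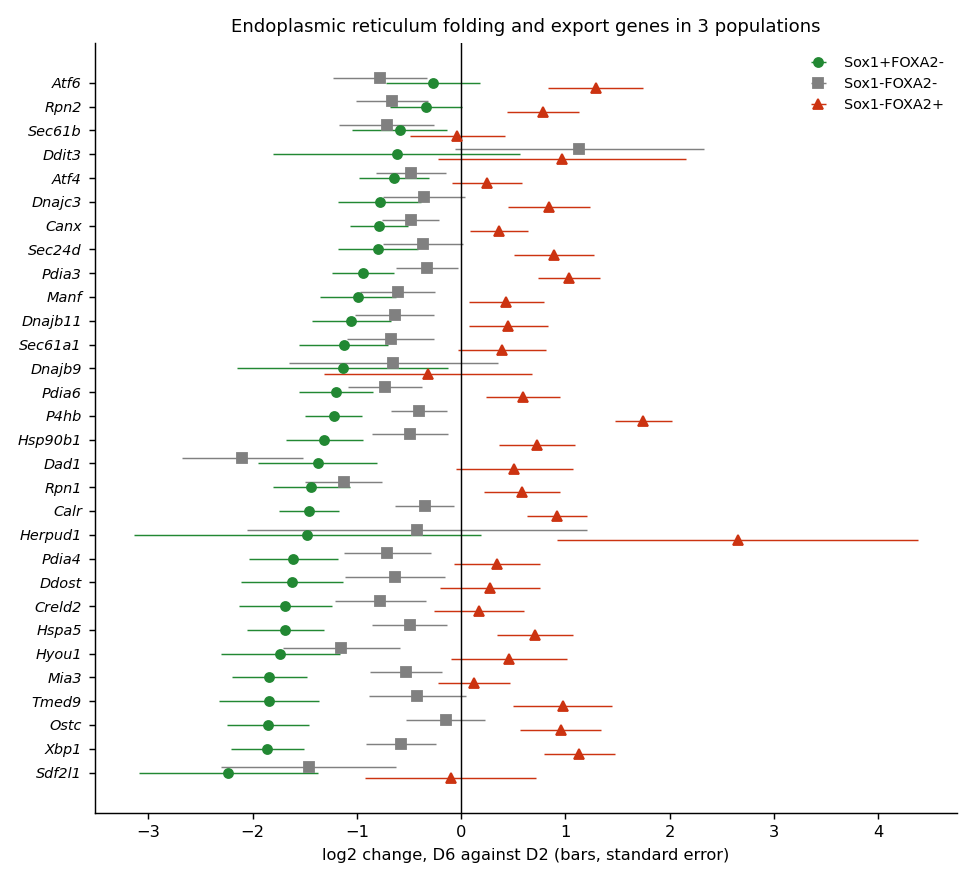
Points give the log2 change from D2 to D6 of the 30 ER folding and export genes in Sox1+FOXA2- (green), Sox1-FOXA2- (grey) and Sox1-FOXA2+ (red) cells, from 1 fit of 27 libraries, with standard errors as bars. All 30 green points lie below 0 and left of the red points, with Xbp1 at -1.86 and 1.14.

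The 14 genes with a higher change in Sox1+FOXA2- cells included genes of the neural tube that were low in Sox1-FOXA2+ cells at D6. Sfrp2, a secreted Wnt modulator of the neural tube, had 615, 590 and 183 normalized counts at D2 and 1217, 1488 and 973 at D6 in Sox1+FOXA2- cells, and 527, 587 and 351 and then 13.1, 0 and 0 in Sox1-FOXA2+ cells (difference 7.99, adjusted p = 0.0081). Ptn (pleiotrophin), a growth factor of radial glia, had 1113, 1492 and 642 at D2 and 5510, 3920 and 1532 at D6 in Sox1+FOXA2- cells (difference 4.20, adjusted p = 0.038). In that fit its log2 change was 1.54 in Sox1+FOXA2- cells, -2.66 in Sox1-FOXA2+ cells and 5.44 in Sox1-FOXA2- cells. Its difference from Sox1-FOXA2- cells was not called. Lgi2 was at 463, 184 and 709 and then 367, 617 and 201 in Sox1+FOXA2- cells, and at 546, 196 and 203 and then 0 in all 3 libraries of Sox1-FOXA2+ cells, so that its fitted difference of 11.11 depends on the prior count and is no bound. The microtubule protein gene Map1a and the gene Dusp27 differed by 5.53 and 5.20.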

How the data were processed

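Libraries were made from about 500 sorted cells with Takara's SMART-Seq Stranded chemistry. For alignment the authors used STAR and the mouse GENCODE release M21 (GRCm38), followed by SAMtools and by featureCounts for counts per gene, and they deposited raw counts. The versions are not given in the sources used here. All 57 columns of the table were assigned to their samples by title. The 92 lines that name no gene held 0 counts and were left out, and 55450 genes matched GENCODE M21. Counting spanned introns, without regard to strand as far as the values show: 798 of 798 protein-coding genes inside another gene had 0 counts in every library, so that reads from introns count toward long genes, and genes that overlap others are undercounted.

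Groups were taken from the labels, and 3 days of 3 libraries entered the main test. Testing used the quasi-likelihood method of edgeR 4.0.16 under R 4.3.3, with TMM scaling, a prior count of 0.125 and filterByExpr at its limits of 10 counts in a library and 15 in total, two-sided, and an adjusted p (Benjamini-Hochberg) under 0.05 was called. DESeq2 1.42.0 gave normalized counts over the 39 sorted libraries and an alternative test, and limma 3.58.1 a test with library weights. Differences of changes between populations used 27 libraries of 3 populations and 3 days. Single values were compared by exact permutation tests in SciPy 1.17.1 (Python 3.11.15), for which 0.1 is the smallest p. Counts cover sampling error only, and reads without molecular identifiers are not independent molecules.

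The members and gene lists were chosen with earlier results of these data known, and 5 of 29 lists were written after the called genes were seen. Named genes were the 15 largest log2 changes in each direction (5 for differences between populations) among called genes with at least 100 normalized counts on average and no overlap between days, in either population for differences, leaving out predicted genes and clone names, together with list members. Since the 9-library fit called none, the rule was applied to the 6-library fit, after its values were seen. Other genes were named as examples of the called ones. Single values of some genes are not reported here.

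The fits of D6 against D2 and of the difference from Sox1-FOXA2+ cells were checked on simulated counts with 200 genes changed. With equal noise in all libraries and at log2 changes of 2 and 3, edgeR recovered 27% and 51% over the 9 libraries and 45% and 56% over the 6 libraries, where 7.34% of calls were false. With noise set by library weight it recovered 14% and 38%, and 21% and 36% with 1.72% false calls. For the difference from Sox1-FOXA2+ cells it recovered 11% and 36%, with 6% false calls. Between D2 and D4 with no gene changed it made 0 calls.

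Replicate numbers are shared between days, but the labels do not say what a number marks. Over 5000 genes, deviations from the day means of like-numbered libraries correlated at 0.277, 0.393 and 0.303 between D4 and D6, as paired libraries would. The main test of D6 against D4 nevertheless held no replicate block. With the block it also called 0 genes. Between D2 and D4 the correlations were 0.168, -0.188 and -0.053, and between D2 and D6 0.086, -0.086 and 0.061. Promoter sequences came from RefSeq (GRCm38.p6), in which the 3 genes shown were matched by symbol.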

Additional observations from a re-analysis of the deposited data

Results flagged for a closer look

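For 79 genes the change from D2 to D6 differed between Sox1+FOXA2- and Sox1-FOXA2+ cells by edgeR's test of the difference. Among the genes named by the rule, the log2 difference of the changes was 11.11 for Lgi2, 7.99 for Sfrp2, 5.53 for Map1a, 5.20 for Dusp27 and 4.20 for Ptn. It was -6.59 for Tinagl1, -5.72 for Col4a1, -5.65 for Lama1, -5.52 for Ccn2 and -5.40 for Pdpn. The fitted values of Lgi2, Sfrp2, Map1a and Dusp27 rest on Sox1-FOXA2+ libraries at or near 0 at D6 and depend on the prior count.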

How the results depend on the processing

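The count of called genes between D2 and D6 depended on the fit. It was 0 in the 9-library fit, with RLE scaling, with the long-gene share as a covariate and with only genes under 30 kb, 2 over all 39 sorted libraries, 116 over the 6 libraries compared, 421 with no filter on low counts, 1208 with limma's library weights and 1296 with DESeq2, and 0 to 129 with 1 library left out. For D4 against D2 it was 1 over all 39 libraries and with the covariate, 3 with library weights, 154 with no filter, 388 with DESeq2 and 0 to 6 with 1 library left out. For D6 against D4 it was 3 with no filter, 128 with DESeq2 and 0 to 15 with 1 library left out, 15 of them without replicate 3 at D4. The 116 genes of the 6-library fit became 134 with RLE, 2366 with DESeq2, 872 with no filter, 5 with only genes under 30 kb and 8 to 309 with 1 library left out. The difference from Sox1-FOXA2- cells gave 7 genes with library weights, 20 with no filter, 622 with DESeq2 and 0 or 1 with 1 library left out. The difference from Sox1-FOXA2+ cells gave 27 genes over all 39 libraries, 84 with RLE (24 of them higher, against 14 of 79), 111 with library weights, 341 with no filter, 1882 with DESeq2 and 53 to 118 with 1 library left out. Library weights, the covariate, the limit of 30 kb and all alternatives of the 6-library fit were added after seeing the data. The cause of these differences was not tested.

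With the replicate block the counts were 9 for D6 against D2, 5 for D4 against D2 and 0 for D6 against D4, where like-numbered libraries correlated. They were 151 in the 6-library fit, 0 for the difference from Sox1-FOXA2- and 173 for that from Sox1-FOXA2+ cells. Log2 changes near 0 could change sign between fits, as for Plxna2, at 0.015 over the 9 libraries and -0.030 over the 6. Among the list medians that of hindbrain and spinal cord genes changed sign, from 0.05 to -0.0015 with no filter. RLE and DESeq2 scaling moved the median of all genes by 0.10 on the log2 scale, and scaling genes under 30 kb among themselves turned their median from -0.10 to 0.18. The simulated counts were drawn with edgeR's estimates of spread and held no shift shared by many genes of a library. On them DESeq2's calls were false in 63.5% of cases with equal noise and 33.0% with noise set by library weight. Those of limma with library weights were false in 5.45% and 6.06%.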
